A study of Mus musculus with 24 samples.

Results

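The genes described here are 9 genes of the AP-1 and immediate early response: Jun, Junb, Jund, Fos, Fosb, Fosl2, Atf3, Egr1 and Ier2. They were taken as a named family, by gene name and with no threshold on their values, although earlier results of these data were known when the family was chosen. All 9 were found among the 23177 genes of the Zbtb16 experiment and among the 21688 genes of the Sox3 experiment. In both experiments RNA was sequenced from spermatogonia of mice at postnatal day 7, sorted with magnetic beads against THY1 (undifferentiated spermatogonia) or KIT (differentiating spermatogonia). The Zbtb16 experiment compared Zbtb16 null mice with WT, and the Sox3 experiment compared Sox3 cKO mice with WT. Each of the 8 groups held 3 libraries, 24 in all, and the testes of 3 mice were pooled for each isolation.

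All mice were on the C57BL/6J background. The null mice were homozygous for luxoid (lu/lu). The study's RNA-seq methods name WT littermates as their controls, and the labels give WT only. Its section on mouse husbandry names WT and heterozygous littermates as controls for all experiments. The Sox3 cKO mice carried floxed Sox3 and Ddx4-Cre, whose promoter is active in male germ cells, and their controls were WT littermates. The cells of all groups had been released with trypsin before sorting. Sorting gives an enriched fraction rather than pure cells, and fewer cells of a type and less RNA per cell cannot be told apart in such bulk samples.

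AP-1 is a dimer of basic leucine zipper proteins, made of a JUN protein with another JUN protein or with a FOS protein, and it binds DNA at TRE elements. Most of these genes are immediate early genes: growth factors, stress kinases and cell dissociation raise their transcription within minutes, before any new protein is made. They are therefore read both as products of signalling in the living tissue and as signs of handling during cell isolation, and RNA levels by themselves do not separate these uses.

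The libraries of the Zbtb16 experiment held an estimated 25870000 to 35140000 reads and those of the Sox3 experiment 11030000 to 31800000 reads. Zbtb16 itself was at 52.1 ± 8.93 FPKM (a read count scaled to transcript length and library size; mean ± SD, n = 3) in WT THY1+ libraries and 17.1 ± 1.33 in null ones, and Sox3 was at no more than 0.082 FPKM in any cKO library against at least 6.28 in every WT one. In the Zbtb16 experiment Thy1 and Kit followed the labels. In the Sox3 experiment they went against the labels of the WT libraries: WT libraries carrying the THY1+ label held 0.213 to 0.254 FPKM of Thy1 and 45.6 to 80.1 of Kit, and those carrying the KIT+ label held 3.59 to 4.06 of Thy1 and 12.97 to 18.8 of Kit. The cKO libraries followed their labels. For that reason the Sox3 genotypes were compared as an average over both fractions, which does not depend on the fraction labels, and then between libraries alike in Thy1 and Kit, with the WT libraries named throughout as labelled.

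Fos, the founding member of the FOS family, had the highest level of the 9 genes in all 8 groups, with group means from 77.4 FPKM in null THY1+ libraries to 217 in null KIT+ libraries. Its next neighbour was Junb or Jund, and the Fos libraries lay clear of that neighbour in 6 of the 8 groups. In the middle of the order, Junb, Jund, Ier2, Fosb, Egr1 and Jun mostly overlapped with their neighbours. Fosl2, which encodes FRA-2, and Atf3, a stress-responsive member of the ATF/CREB family, were the lowest pair in every group. Within groups of 3 libraries the coefficient of variation reached 60.1% for Ier2, 54.8% for Fosb and 47.8% for Jun, against 28.3% at most for Fosl2. Outside Atf3 each value rested on at least 417 estimated reads, whereas Atf3 fell to 21 in its lowest library.

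**Figure D1:**
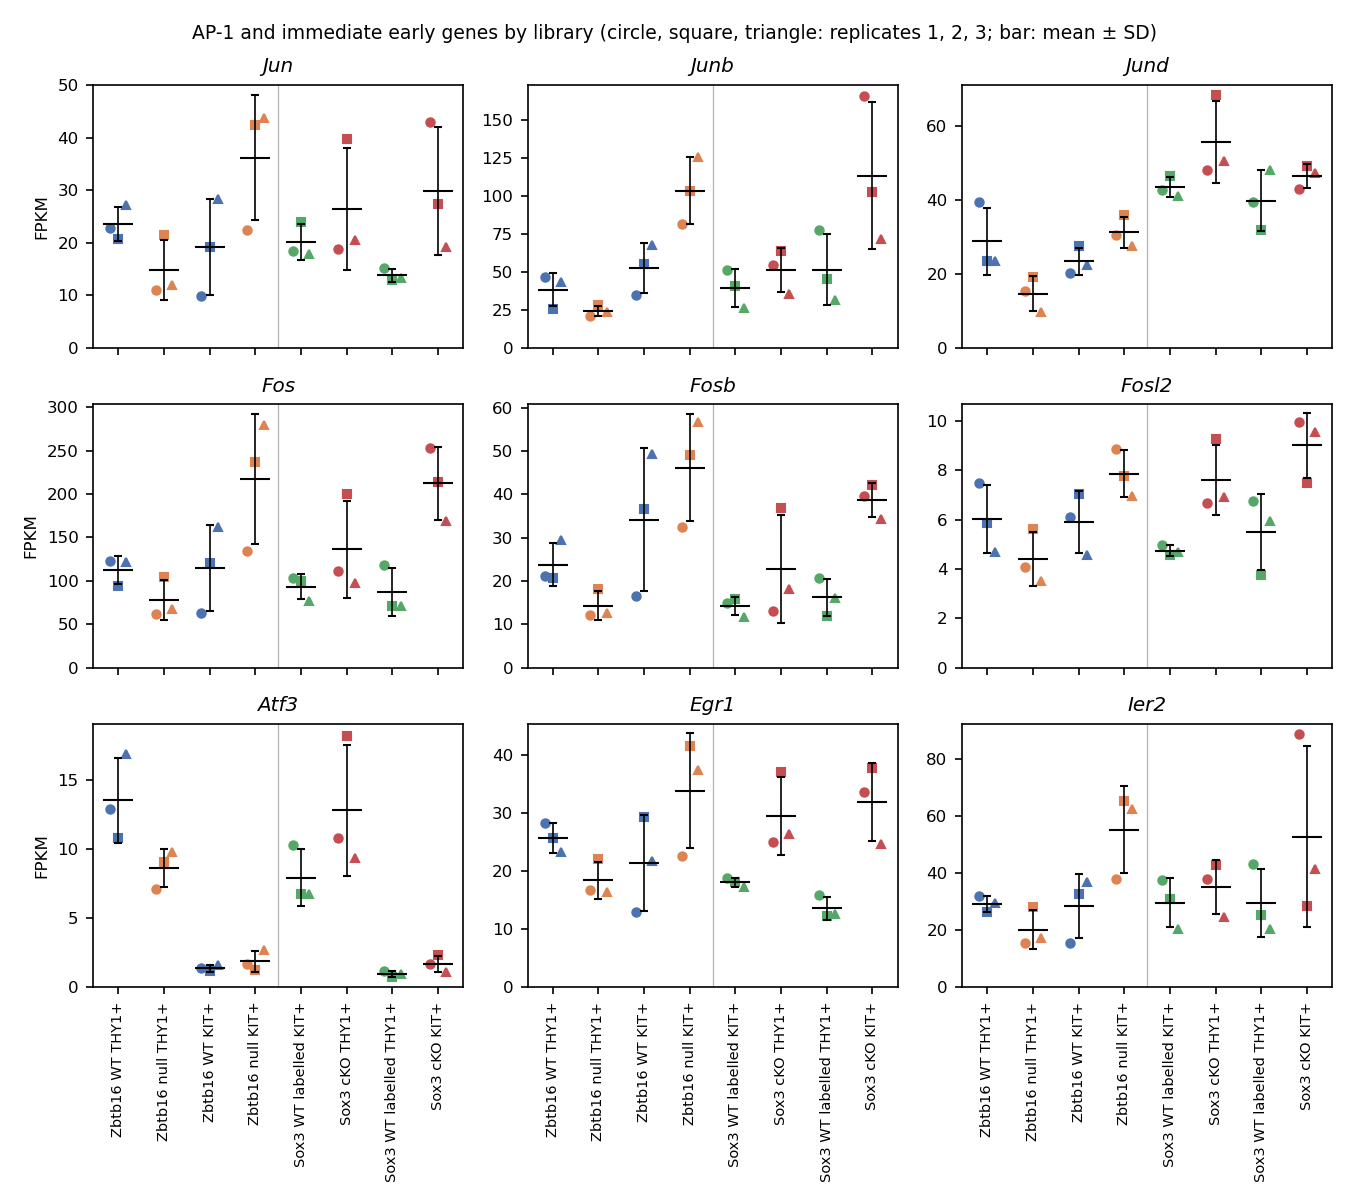
Level of each gene in FPKM (y axis, linear, starting at 0, a scale for each panel) in the 24 libraries, by group on the x axis. Symbols give replicates 1, 2 and 3 and black bars the mean ± SD of 3 libraries; the 4 Sox3 groups stand right of the grey line, with the WT libraries placed beside the cKO libraries they resembled in Thy1 and Kit. Fos reached 280 FPKM in a null KIT+ library, and Atf3 was at 6.72 FPKM or more in every library of the groups with high Thy1 and at 2.71 or less in all others.

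The upstream sequences of 4 of the genes are shown: Fos, Fosb, Junb and Atf3. These are also the 4 genes whose windows held the TGACG core named below. Atf3 went against the others between the fractions of null mice. RefSeq promoters (build GRCm38.p6) were matched for 7 of the 9 genes, all but Egr1 and Ier2, and the 250 bases before the listed start were searched on both strands for the TRE (TGACTCA), the CRE (TGACGTCA), the core that the CRE contains (TGACG), the EGR site (GCGNGGGCG), the CArG box of serum response factor and the TATA box (TATAAA). Capitals mark the matches, each sequence reads 5′ to 3′ on the gene's strand, and the core was added after the letters had been seen.
Fos, chr12:85473640-85473889, plus strand: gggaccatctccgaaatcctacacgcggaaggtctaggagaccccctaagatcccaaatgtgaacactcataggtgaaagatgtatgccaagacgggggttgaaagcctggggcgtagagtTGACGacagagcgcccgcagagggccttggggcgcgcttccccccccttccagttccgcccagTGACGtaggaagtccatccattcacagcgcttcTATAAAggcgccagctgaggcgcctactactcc
Fosb, chr7:19310046-19310295, minus strand: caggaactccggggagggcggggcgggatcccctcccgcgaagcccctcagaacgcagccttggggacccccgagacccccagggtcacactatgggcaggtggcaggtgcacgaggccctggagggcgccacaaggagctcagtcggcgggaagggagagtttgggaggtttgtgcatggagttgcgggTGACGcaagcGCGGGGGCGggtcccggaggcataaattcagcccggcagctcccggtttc
Junb, chr8:84978749-84978998, minus strand: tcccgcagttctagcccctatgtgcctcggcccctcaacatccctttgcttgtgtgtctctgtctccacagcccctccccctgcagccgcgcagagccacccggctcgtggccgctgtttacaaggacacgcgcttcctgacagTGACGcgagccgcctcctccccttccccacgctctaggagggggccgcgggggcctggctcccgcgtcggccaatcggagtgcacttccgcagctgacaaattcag
Atf3, chr1:191183334-191183583, minus strand: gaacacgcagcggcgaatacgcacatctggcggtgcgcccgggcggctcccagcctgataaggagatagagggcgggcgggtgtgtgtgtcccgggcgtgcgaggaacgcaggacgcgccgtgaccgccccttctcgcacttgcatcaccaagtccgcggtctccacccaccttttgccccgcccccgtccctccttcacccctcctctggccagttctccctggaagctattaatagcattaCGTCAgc
The CRE core was in 4 of the 7 windows, those shown (in Atf3 on the opposite strand, so that its complement is in capitals), and in 17.8% of the 32851 mouse promoters searched. As the core was chosen after the letters had been seen, this count cannot serve as a test against that share. The TATA box was in the Fos window, from base -33 to base -28 before the start, and in 12.4% of all promoters. The EGR site was in the Fosb and Fosl2 windows and in 4.70% of all promoters. The TRE, the whole CRE and the CArG box were in 0 of the 7 windows, against 4.46%, 1.55% and 1.47% of all promoters. The windows follow the listed RefSeq starts, which differ from the annotated gene starts in some genes. The Jund window (chr8:70697489-70697738) lies apart from the annotated start at 70698949. The Fosl2 window (chr5:32136222-32136471) and the Atf3 window lie inside the annotated genes. These matches describe letters in short windows and not occupied sites.

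In the genome (GRCm38) Jun lies on chromosome 4 at 95049034 to 95052222, Fos on chromosome 12 at 85473890 to 85477273, and Jund on chromosome 8 at 70698949 to 70700616. Jun, Jund and Ier2 each consist of a single exon block. Genes on the opposite strand overlap 4 of the 9: Junos overlaps Jun over 689 bases, Gm11175 overlaps Jund over 919 bases, Prdx2 overlaps Junb over 351 bases, and the small RNA gene Gm24748, which has no value in either experiment, overlaps Atf3 over 108 bases. Whether the authors' counting used strand is not given in the sources used here, and without strand the reads of such partners cannot be told apart.

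The question put to the Zbtb16 THY1+ libraries was what the loss of ZBTB16 does in undifferentiated spermatogonia. All 9 genes had lower mean levels in null than in WT THY1+ libraries, by 0.45 to 0.98 on the log2 scale, and 1 of them, Jund, passed the test. A gene was called where limma's adjusted p was at most 0.05 and the change at least 1.5-fold on the log2(FPKM + 0.1) scale, a rule that 3.98% of the 22374 genes tested met in this comparison. The median log2 change was -0.63 over the 9 genes and -0.03 over all genes tested.

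Among the JUN genes, Jund, which encodes the most constitutive JUN protein, stood at 39.4, 23.6 and 23.7 FPKM in WT THY1+ replicates 1, 2 and 3 and at 15.3, 19.1 and 9.75 in null THY1+ replicates. Its groups did not overlap, and the log2 change was -0.98 ± 0.25 (SE; limma, adjusted p = 0.0491). Leaving out any of 5 of the 6 libraries ended this call (all but null replicate 2), with log2 changes from -1.19 to -0.71 and over all alternatives the adjusted p of Jund ran from 0.00886 to 0.175. Gm11175 overlaps 919 of the 1668 exon bases of Jund on the opposite strand, and its part in the Jund change was not tested. Junb, another JUN family gene, stood at 46.5, 25.9 and 43.2 FPKM in WT and at 21.0, 28.1 and 23.9 in null, and these groups overlapped. Jun, whose protein c-Jun is the main target of the JNK kinases, stood at 22.8, 20.7 and 27.1 FPKM in WT and at 10.96, 21.4 and 12.04 in null. In both genes null replicate 2 reached the WT range, and neither passed the test (adjusted p = 0.188 for Junb and 0.269 for Jun).

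Among the FOS genes, Fos stood at 123, 93.7 and 121 FPKM in WT THY1+ and at 61.1, 104 and 67.1 in null THY1+ libraries, a log2 change of -0.57 ± 0.35 (adjusted p = 0.351). Fosb, a close relative of Fos, stood at 21.0, 20.7 and 29.6 FPKM in WT and at 12.1, 18.1 and 12.6 in null, with no overlap (log2 change -0.74 ± 0.35, adjusted p = 0.231). Atf3 stood at 12.9, 10.8 and 16.9 FPKM in WT and at 7.12, 9.06 and 9.81 in null, again with no overlap (log2 change -0.63 ± 0.26, adjusted p = 0.181). Egr1, a zinc finger transcription factor induced together with Fos, was the last of the 4 genes whose groups did not overlap, with 23.2 to 28.3 FPKM in WT and 16.3 to 22.1 in null. Over all genes, 14.1% had null THY1+ libraries all below WT ones. With the replicate number as a block, Atf3 joined Jund (adjusted p = 0.0309 and 0.0183), 2 of 9 against 8.85% of all genes.

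The same question in KIT+ libraries gave means in the other direction. All 9 genes had higher means in null than in WT KIT+ libraries, by 0.37 to 1.01 on the log2 scale, yet 0 of the 9 passed limma's test, in which 0.259% of all genes were called. Before adjustment 3863 of the 22374 genes had p under 0.05. The median log2 change over the 9 genes was 0.70, and over all genes it was 0.01.

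Junb stood at 35.3, 55.1 and 67.9 FPKM in WT KIT+ replicates 1, 2 and 3 and at 82.0, 103 and 126 in null KIT+ ones, a log2 change of 1.004 ± 0.269 (adjusted p = 0.164). Ier2, which encodes a small nuclear protein of the early response, stood at 15.6, 32.8 and 36.9 FPKM in WT and at 37.9, 65.4 and 62.6 in null (log2 change 1.01 ± 0.33, adjusted p = 0.193). Junb and Ier2 were the genes whose null KIT+ libraries all lay above the WT ones, a pattern that 8.73% of all genes had. Fos stood at 62.5, 121 and 162 FPKM in WT and at 134, 237 and 280 in null, where the lowest null library fell below the highest WT library. Jun ran from 9.97 to 28.3 FPKM in WT and from 22.4 to 43.7 in null. WT KIT+ replicate 1 had the lowest value of its group for 7 of the 9 genes, and null KIT+ replicate 1 for 6 of 9.

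The null effect in KIT+ libraries less that in THY1+ libraries was positive for all 9 genes, from 0.87 ± 0.31 for Fosl2 to 1.70 ± 0.53 for Jun on the log2 scale. In the model without a block limma called 0 of the 9 (adjusted p = 0.0938 to 0.170; p before adjustment from 0.00121 to 0.0265) and 7 of all 22374 genes, or 0.0313%, with 5014 genes under 0.05 before adjustment. With the replicate number as a block, all 9 were called (adjusted p = 0.0224 to 0.0406), against 9.06% of all genes called in the positive direction. The log2 estimates were the same in both fits, and the SE of Jun went from 0.53 to 0.40 and that of Atf3 from 0.38 to 0.24. Whether the fractions differ in the null effect on these genes therefore depended on the pairing of libraries by replicate number. In the block-free fit, leaving out null KIT+ replicate 1 gave 1 call, Junb.

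**Figure D2:**
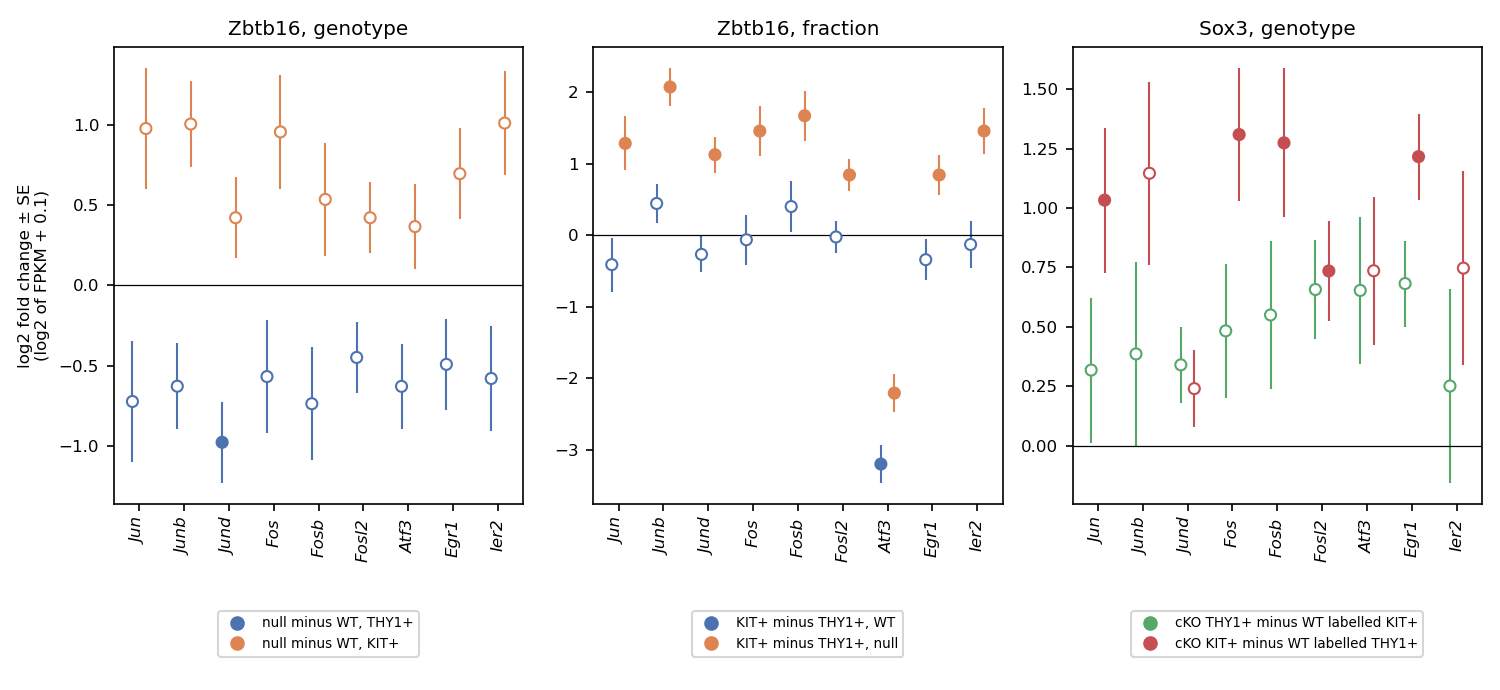
Log2 fold change ± SE (y axis; log2 of FPKM + 0.1) of each gene (x axis) for the Zbtb16 genotypes in each fraction (left), the Zbtb16 fractions in each genotype (middle) and the Sox3 genotypes in libraries alike in Thy1 and Kit (right); filled points were called. On the left the 9 THY1+ values lie between -0.98 and -0.45 and the 9 KIT+ values between 0.37 and 1.01.

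Between the fractions, 1 of the 9 genes was called in WT mice and 9 in null mice. The test of that difference between genotypes is the interaction given above, which called 0 of the 9 without the block and 9 with it. In WT, 1 of the 9 was called between KIT+ and THY1+ libraries, where 21.2% of all genes were called. This was Atf3, at 12.9, 10.8 and 16.9 FPKM in THY1+ libraries and 1.36, 1.13 and 1.62 in KIT+ libraries, which is 9.21-fold lower in KIT+ (log2 change -3.20 ± 0.26, adjusted p = 6.76e-06). The other 8 genes had log2 changes from -0.41 for Jun to 0.45 for Junb, with adjusted p from 0.245 to 0.949. Fos, for example, was at 112.5 ± 16.2 FPKM in WT THY1+ and 115 ± 49.8 in WT KIT+ libraries.

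In null mice all 9 genes were called between the fractions, where 29.2% of all genes were called, and 8 of them were higher in KIT+ libraries, where 13.2% of all genes were called higher. Junb was at 103.7 ± 21.9 FPKM in null KIT+ and 24.3 ± 3.55 in null THY1+ libraries, 4.22-fold higher (log2 change 2.08 ± 0.27, adjusted p = 0.000127). Fosb followed at 3.19-fold, and Fos and Ier2 at 2.75-fold each, with adjusted p of 0.00301, 0.0067 and 0.00429. Jun was 2.44-fold, Jund 2.19-fold, and Fosl2 and Egr1 1.80-fold higher. The null KIT+ libraries of these 8 genes all lay above the null THY1+ libraries, as in 21.3% of all genes. Atf3 went the other way, at 8.66 ± 1.39 FPKM in null THY1+ and 1.87 ± 0.77 in null KIT+ libraries (log2 change -2.21 ± 0.26, adjusted p = 7.52e-05). Without a single library the count ranged from 7 to 9: Jun and Egr1 each lost the call without null THY1+ replicate 1 or 3 or null KIT+ replicate 2 or 3.

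Most other immediate early genes had the same pair of signs. Of 44 further immediate early genes, 34 had lower means in null THY1+ and higher means in null KIT+ libraries, as all 9 genes described here did. The same held for 7 of 14 AP-1 and bZIP partners, 3 of 19 signalling genes, 3 of 18 heat shock and stress chaperone genes and 29.1% of all genes tested. Few of these changes passed the test. In THY1+ libraries Sgk1, a serum-induced kinase, rose from 6.18 to 12.8 FPKM and Gadd45g, a stress and growth arrest gene, from 3.64 to 7.93, while Plk3, a stress-induced kinase, fell from 4.58 to 2.80 (adjusted p = 0.000434, 0.034 and 0.018). In KIT+ libraries Sgk1 alone of the 44 was called, at 5.48 FPKM in null and 2.88 in WT (adjusted p = 0.00502). With the replicate number as a block the calls among the 44 went from 3 to 9 in THY1+ libraries, 2 higher and 7 lower in null, and from 1 to 7 in KIT+ libraries, all higher. Over all 22374 genes the block took the calls from 890 to 1980 in THY1+ and from 58 to 513 in KIT+ libraries. Between the null fractions 15 of the 44 rose in KIT+ and 6 fell, where 2954 of the 22374 genes rose and 3578 fell. Ctgf and Cyr61, matricellular genes induced by serum, led the rises at 37.9 ± 17.3 against 5.77 ± 1.01 FPKM and 34.8 ± 14.7 against 7.51 ± 1.09 FPKM, and Myc followed at 4.77 against 1.27. Egr4, at 6.56 against 20.3 FPKM, Sgk1 and Egr2 fell, so that the EGR genes did not share a direction.

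**Figure D3:**
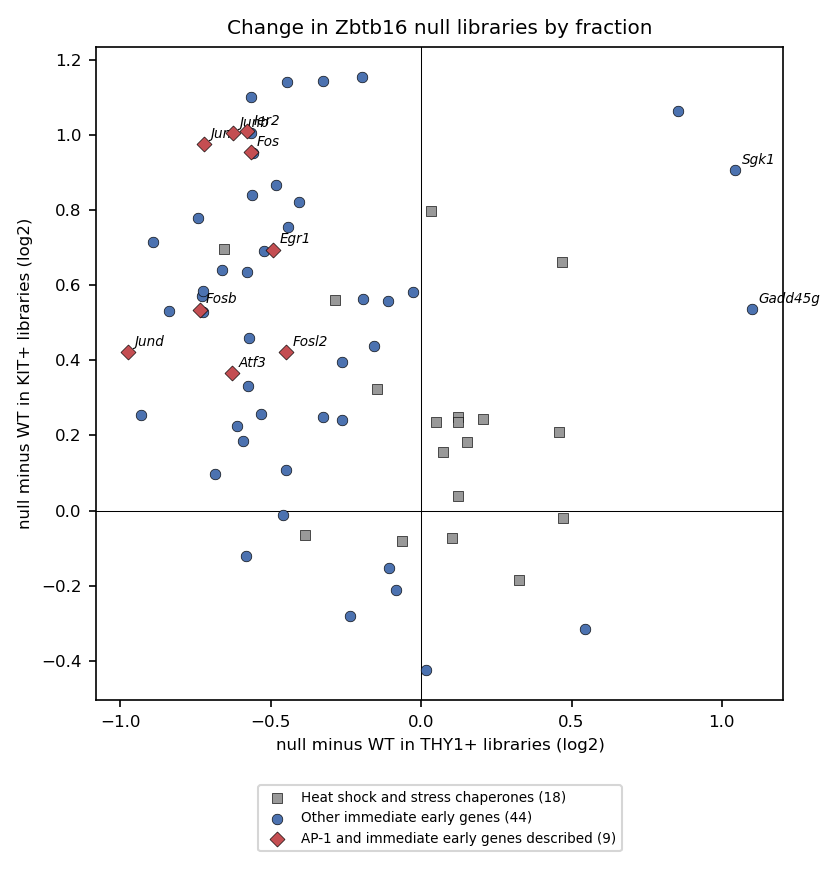
Log2 change of null against WT in THY1+ libraries (x axis) and in KIT+ libraries (y axis) for the 9 genes described, 44 other immediate early genes and 18 heat shock and stress chaperone genes; each point is a gene, and the axes share no library. The 9 genes all lie in the upper left quadrant, with 34 of the 44 and 3 of the 18.

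Few AP-1 partner, signalling and chaperone genes were called between genotypes. Of 14 other AP-1 and bZIP partner genes, Batf, an AP-1 partner of leukocytes, was called in null THY1+ libraries (2.30 against 3.82 FPKM) and 0 in null KIT+ libraries, and with the block 3 and 0 were. Between the null fractions Atf4, a factor of the integrated stress response, was at 140 ± 32.5 FPKM in KIT+ and 80.5 ± 8.29 in THY1+ libraries (adjusted p = 0.00724), and Batf fell. Of 19 genes that signal to AP-1, 0 were called in either genotype comparison, with median log2 changes of -0.09 and 0.03, and Mapk10, which encodes the kinase JNK3, and Elk4 were lower in null KIT+ than in null THY1+ libraries. Of 18 heat shock and stress chaperone genes 0 were called between genotypes in either fraction. Of all genes 3.98% were called in THY1+ and 0.259% in KIT+ libraries. In each fraction 13 of the 18 had higher means in null libraries, with median log2 changes of 0.11 in THY1+ and 0.22 in KIT+. Over all genes the medians were -0.03 and 0.01. With the block 1 signalling gene, Elk3, was called in THY1+ and 1 chaperone gene, Hspa1b, in KIT+ libraries. Between the null fractions Hspb1 and Ddit3 rose in KIT+ libraries, and Hmox1, the heme oxygenase, and Hsph1 fell.

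Markers of several somatic cell types, though not of all, moved beside these genes. The summed FPKM of 12 peritubular and stromal marker genes was 429 to 603 in WT THY1+ and 264 to 406 in null THY1+ libraries, and 174 to 316 in WT KIT+ and 274 to 505 in null KIT+ libraries. The 8 Leydig cell markers summed to 93.5 to 134 and 58.7 to 89.7 FPKM in THY1+ libraries of WT and null mice, and to 1238 to 2330 and 2087 to 3181 in KIT+ libraries. In both lists the mean log2 change of most genes had the sign seen for the 9 genes: 11 of 12 and 8 of 8 were lower in null THY1+, and 11 of 12 and 8 of 8 higher in null KIT+ libraries, with 0 called in either. With the replicate number as a block, 5 of 8 Leydig and 2 of 12 stromal markers were called lower in null THY1+ libraries, and Star and Acta2, 1 of each list, higher in null KIT+ libraries. The block also called 5 of 10 Sertoli markers and 3 of 13 macrophage markers lower in null THY1+ libraries, where without it 0 and 1 were called. Of all 22374 genes the block called 1004 lower in null THY1+ and 351 higher in null KIT+ libraries. The 13 macrophage markers summed to 985 to 1138 FPKM in WT THY1+, 456 to 880 in null THY1+ and no more than 16.9 in any KIT+ library. All 13 macrophage markers had lower means in null THY1+ libraries, and in null KIT+ libraries 7 were higher and 6 lower. Of 8 T cell markers 5 were lower and 3 higher in null THY1+ libraries, and 4 lower and 4 higher in null KIT+ libraries. Of all genes tested 29.1% were lower in null THY1+ and higher in null KIT+ libraries. Of the other lists, 9 of 10 Sertoli and 6 of 8 endothelial markers were lower in null THY1+ libraries, and 8 of 10 and 7 of 8 higher in null KIT+ libraries. The 14 germ cell genes went the other way, 11 of them higher in null THY1+ and 10 lower in null KIT+ libraries. No marker of these lists was at 0 in every library of a Zbtb16 group. The part of these cells in the levels of the 9 genes was not tested.

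**Figure D4:**
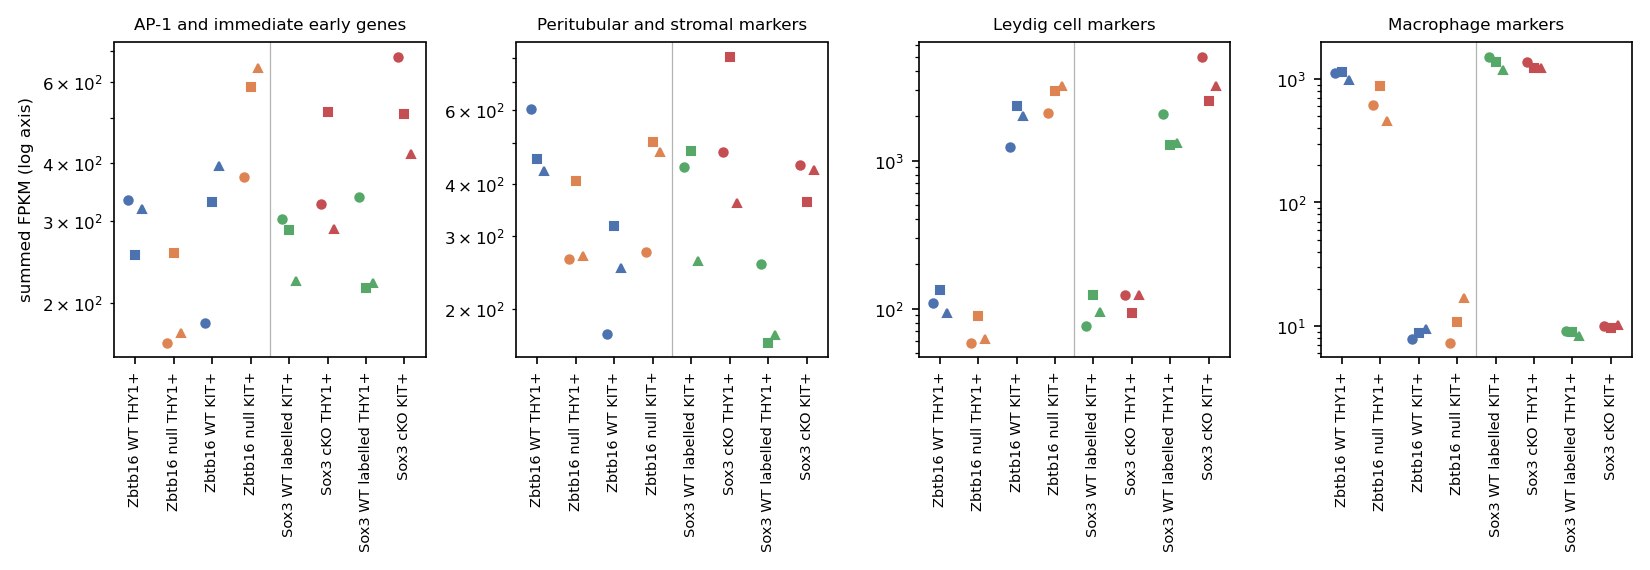
Summed FPKM (y axis, log scale, a scale for each panel) in each of the 24 libraries of the 9 genes described and of 3 somatic marker lists; symbols give replicates 1, 2 and 3 in each group. Leydig markers reach 5026 FPKM in a cKO KIT+ library, where the 9 genes sum to 679, and macrophage markers are below 17 FPKM in the groups with high Kit.

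Atf3 was high where Thy1 and the macrophage markers were high. Its group means were 7.95 to 13.6 FPKM in the groups with high Thy1, null THY1+ included at 8.66, and 0.948 to 1.87 in those with high Kit, and this held in the Sox3 WT libraries against their labels. In the WT libraries labelled KIT+ it stood at 10.3, 6.72 and 6.78 FPKM and in those labelled THY1+ at 1.17, 0.704 and 0.970. In the Sox3 cKO mice it was 7.23-fold lower in KIT+ than in THY1+ libraries (log2 change -2.85 ± 0.31, adjusted p = 4.33e-05). It was the only member called between the cKO fractions, where 22.7% of all genes were called, and between the WT fractions as labelled, where 19.7% were called, there with the opposite sign (log2 change 2.94 ± 0.31). With the replicate number as a block, Junb, Fos and Fosb joined it in the cKO fractions, 4 of 9 against 25.3% of all genes, all 3 higher in KIT+ libraries (adjusted p = 0.000697, 0.0383 and 0.0499). Macrophage markers summed to 1184 to 1511 FPKM in the Sox3 libraries with high Thy1 and to no more than 10.2 in those with high Kit, with Trac, a T cell marker, listed at 0 in all WT libraries labelled THY1+. The part of those cells in the level of Atf3 was not tested.

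The question put to the Sox3 libraries was what the loss of SOX3 in germ cells does in either fraction. Averaged over both fractions, 6 of the 9 genes were higher in cKO than in WT libraries: Egr1, Fosb, Fos, Fosl2, Atf3 and Jun. Of all 21212 genes tested, 10.3% were called, 7.49% as higher. The changes of these 6 ran from 1.60-fold for Jun to 1.93-fold for Egr1, and their adjusted p from 0.00219 to 0.0411. Junb, at a log2 change of 0.77 ± 0.27, Jund at 0.29 ± 0.11 and Ier2 at 0.50 ± 0.29 did not pass (adjusted p = 0.0608, 0.0831 and 0.226). The median log2 change was 0.70 over the 9 genes and 0.03 over all genes. Without WT replicate 2 labelled THY1+ the count fell from 6 to 3, and it was 7 without cKO THY1+ replicate 3 or cKO KIT+ replicate 3. Fos, Fosb and Egr1 kept the call whichever library was left out. Jun and Atf3 each lost it in 8 of the 12 fits without a single library, and Fosl2 in 1.

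In the libraries with high Kit, 5 of the 9 were higher in cKO KIT+ than in the WT libraries labelled THY1+, against 17.0% of all genes called and 12.4% called higher. Egr1 stood at 33.6, 37.8 and 24.6 FPKM in cKO replicates 1, 2 and 3 and at 15.9, 12.3 and 12.6 in WT, a log2 change of 1.22 ± 0.18 (adjusted p = 0.00237). Fos stood at 253, 214 and 169 FPKM in cKO and at 119, 71.3 and 71.2 in WT (log2 change 1.31 ± 0.28, adjusted p = 0.00832). Fosb stood at 39.6, 42.1 and 34.3 FPKM in cKO and at 20.6, 12.01 and 16.2 in WT (log2 change 1.27 ± 0.31, adjusted p = 0.0144). The cKO replicates spread more widely in Fos than in Fosb. Jun, at 43.0, 27.4 and 19.2 FPKM against 15.3, 12.9 and 13.2, and Fosl2, at 9.98, 7.51 and 9.57 against 6.77, 3.77 and 5.95, were the other calls (adjusted p = 0.0305 and 0.0259). In each of these 5 genes every cKO library lay above every WT one, as in 22.8% of all genes. Junb, at 166, 103 and 71.6 FPKM against 77.9, 45.5 and 31.8, missed the threshold (adjusted p = 0.0505). Without cKO KIT+ replicate 1 the count was 3, and without WT replicate 2 labelled THY1+ it was 2, Fos and Egr1.

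In the libraries with high Thy1 all 9 genes had higher means in cKO THY1+ than in the WT libraries labelled KIT+, by 0.25 to 0.68 on the log2 scale, and limma called 0 of them (adjusted p = 0.243 to 0.816), as against 0.0707% of all genes, with 2793 of 21212 genes under 0.05 before adjustment. Egr1 stood at 25.0, 37.2 and 26.4 FPKM in cKO THY1+ and at 18.9, 18.1 and 17.3 in WT, Fosl2 at 6.67, 9.26 and 6.92 against 4.98, 4.56 and 4.69, and Jund at 48.1, 68.4 and 50.6 against 42.7, 46.5 and 41.3. In these 3 genes the groups did not overlap, as in 7.59% of all genes in the higher direction. cKO THY1+ replicate 2 had the highest value of its group for all 9 genes, with Fos at 200 FPKM against 111 and 96.9 in replicates 1 and 3. That library also had the highest sum of stromal markers of all 24, at 807 FPKM against 478 and 359, and the link was not tested. Whether the cKO effect differed between the fractions was not tested.

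With the WT libraries taken as labelled, 3 of the 9 were called in THY1+ (29.1% of all genes) and 6 of 9 in KIT+ libraries (25.1%). Atf3 was among them in both, at log2 changes of 3.59 ± 0.31 and -2.20 ± 0.31, that is, in opposite directions, whereas in the comparisons of libraries alike in Thy1 and Kit its changes were 0.65 ± 0.31 and 0.74 ± 0.31, neither called. Egr1 was called higher in cKO in both fractions as labelled, at 1.101 ± 0.181 in THY1+ and 0.80 ± 0.18 in KIT+ libraries, but in libraries alike in Thy1 and Kit it was called with high Kit and not with high Thy1 (log2 change 0.68 ± 0.18, adjusted p = 0.243).

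Other immediate early genes in the Sox3 experiment changed with the 9 in part. Averaged over fractions, 6 of the 44 rose and 1 fell: Egr3, at 1.26 against 0.591 FPKM, Nr4a2, an orphan nuclear receptor, at 1.80 against 1.03, and Zfp36, which encodes an mRNA decay factor, at 28.2 against 16.3 led the rises, and Dusp2, a phosphatase of MAP kinases, fell from 5.04 to 3.02. In the libraries with high Kit 11 rose and 2 fell, and in those with high Thy1 0 were called. Of all 21212 genes 1588 rose and 600 fell on average, 2638 and 970 with high Kit, and 1 and 14 with high Thy1. Among the 18 chaperone genes Bag3, at 4.26 against 2.32 FPKM, rose on average. Of 19 signalling genes only Elk3, a partner of serum response factor, was called on average (2.98 against 2.10 FPKM).

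Some somatic markers were called higher in cKO libraries on average and with high Kit, where 7.49% and 12.4% of all genes were called higher. In the libraries with high Thy1 0 of 8 Leydig, 0 of 12 stromal, 0 of 8 endothelial and 0 of 10 Sertoli markers were called. That comparison called only 0.0707% of all genes, so 0 calls there say little about the markers. Endothelial sums there were 27.0 to 43.9 FPKM in cKO THY1+ and 17.8 to 21.5 in WT libraries labelled KIT+, without overlap. Germ cell genes summed to 1437 to 1632 and 1831 to 2030, and the Leydig, stromal and Sertoli sums overlapped. Of 8 Leydig markers 5 rose on average and 6 in the libraries with high Kit, where they summed to 2544 to 5026 FPKM in cKO and 1270 to 2052 in WT. Of 12 stromal markers 3 rose on average, and their sums in the libraries with high Kit were 362 to 442 in cKO and 166 to 256 in WT. Of 8 endothelial and 10 Sertoli markers 4 and 4 rose on average, and 5 of 14 germ cell genes fell, while 0 of 13 macrophage and 0 of 8 T cell markers were called on average. The part of these cells in the Sox3 result was not tested.

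**Figure D5:**
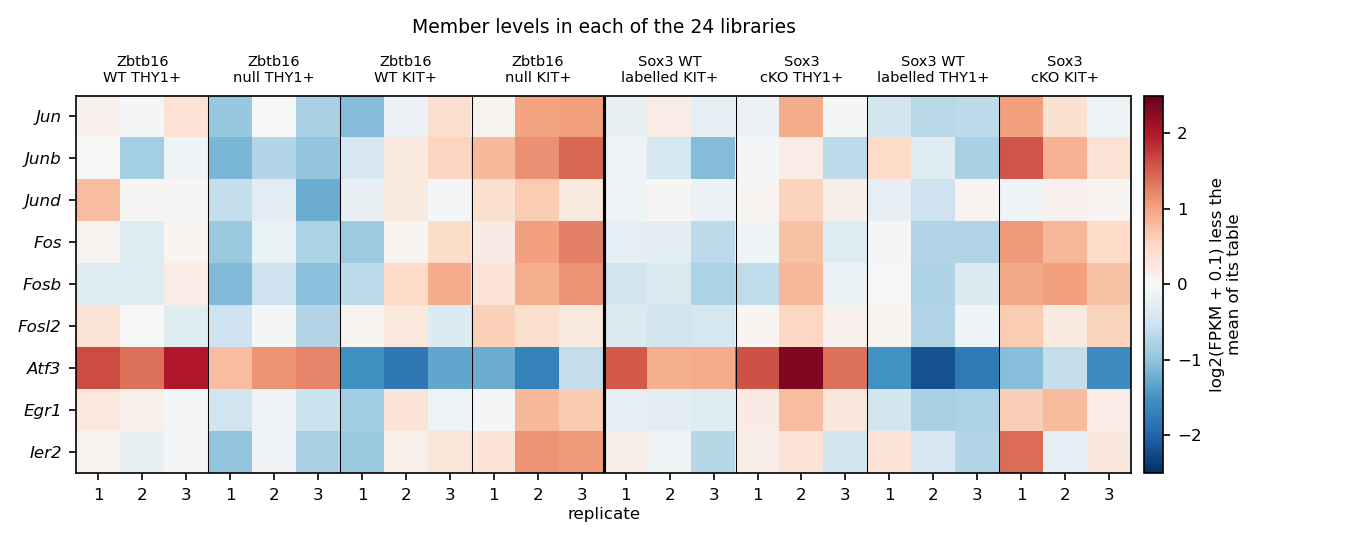
Level of each gene (rows) in the 24 libraries (columns, replicates 1 to 3 in each group) as log2 of FPKM + 0.1 less the gene's mean over the 12 libraries of its experiment. Fos, Fosb, Jun, Junb, Egr1 and Ier2 are high together in null KIT+ replicates 2 and 3 and in cKO KIT+ replicate 1, while Atf3 is high in the groups with high Thy1.

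The likeness of profiles was measured as the root mean square difference of log2 levels over the 24 libraries, each gene centred within its experiment, among 15869 genes. Nearest to Fos were Robo2, Fam114a1 and Mill2, which are not immediate early genes, at differences of 0.211, 0.213 and 0.224. The nearest of the 9 were Fosb at 0.255, the 25th of all genes, Jun at 0.261 and Ier2 at 0.296, and the most distant was Atf3 at 1.69. Nearest to Jund was Gm11175, its antisense neighbour, at 0.102, followed by Hs6st1 at 0.224 and Gypc at 0.237. Whether Jund and Gm11175 shared reads was not tested. The nearest of the 9 to Jund was Fosl2 at 0.306, and Fos was at 0.516. Libraries, depth and base composition are shared by all these profiles, and the differences are given as a description.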

How the data were processed

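RNA-seq values of 24 libraries were read from 2 tables of FPKM deposited by the authors, a Zbtb16 table and a Sox3 table of 12 libraries each, normalised by the authors to exon length and library size. Per the labels and the study's methods, reads from ribosome-depleted stranded libraries were aligned to mm10 with Novoalign, keeping multiple alignments, summarised per gene, and tested with DESeq2, which needs counts and was not run here. Strand use in counting is not given in the sources used here. Reads per library were estimated from the FPKM steps of low genes and exon lengths of the GENCODE annotation (77.9% to 81.2% of such values in the Zbtb16 table and 75.9% to 80.3% in the Sox3 table lay within 0.02 of a whole read), so depth and read numbers are estimates.

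Genes averaging 0.1 FPKM or more were fitted as log2(FPKM + 0.1) with limma 3.58.1 (R 4.3.3, trended and robust variances), all 4 groups of a table in a single fit, with Benjamini-Hochberg adjustment over all genes of the table. Fold changes are on that scale and understate changes of low genes. The step was tested on simulated data, with planted changes larger than most of those reported here and independent noise in each library. That test therefore says nothing on smaller changes or on the use of a replicate block. The 9 genes, the gene lists and the tests were chosen with earlier results of these data known. Named list genes were, for each list, up to 3 calls with the largest change in each direction that reached a mean of 1 FPKM; the 3 nearest profiles were named for Fos and Jund. By the study's reporting summary the 3 replicates of a group were independent biological samples.

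Replicate numbers were used as a block in an alternative. In the Zbtb16 experiment the 4 libraries of a number share the stem of their library ID in the labels, and deviations of same-numbered libraries from their group means correlated at over 0.1 in 16 of 18 pairs (mean 0.40). The 2 exceptions were pairs of WT THY1+ replicate 1 with KIT+ replicates 1, at 0.045 and -0.066. Their groups all enter the interaction, so its block rests on pairs of which 2 were not over 0.1. In the Sox3 experiment 14 of 18 pairs did (mean 0.172), among them all 3 pairs between the cKO fractions (0.262, 0.116 and 0.111). Replicates 2 of the WT libraries labelled THY1+ and of cKO KIT+ were at -0.013. Replicates 2 of the WT libraries labelled KIT+ and of cKO KIT+ were at -0.184. Block counts for the Sox3 libraries with high Kit and on average are therefore given as alternatives only. Other alternatives were pseudocounts of 1 and 0.01, no filter, a mean FPKM of at least 1, median centring, a correction for GC content and length (98.1% and 98.2% of genes had values), the compared libraries only, and leaving out each library. Promoter sequences came from RefSeq (GRCm38.p6). 0 pairs of libraries held identical values.

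The Sox3 result for AP-1 and bZIP partner genes is not reported here.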

Additional observations from a re-analysis of the deposited data

Results flagged for a closer look

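The null effect on all 9 genes differed between THY1+ and KIT+ libraries of the Zbtb16 experiment by limma's interaction term with the replicate number as a block, and these 9 results are singled out for that reason. The difference, as the change in KIT+ less that in THY1+ libraries on the log2 scale, was 1.70 for Jun, 1.63 for Junb, 1.59 for Ier2, 1.52 for Fos, 1.40 for Jund, 1.27 for Fosb, 1.19 for Egr1, 0.99 for Atf3 and 0.87 for Fosl2. The block took the calls of this term from 7 to 2756 of all 22374 genes, and 9.06% were called in the positive direction. In the fit without the block the same estimates had adjusted p from 0.0938 to 0.170, so 0 of the 9 were called, against 0.0313% of all genes. No group held more than 3 libraries, and single libraries were not examined for distance from their group.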

How the results depend on the processing

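Of 1602 alternative values of single genes, 1483 kept direction and side of the threshold, 52 lost a call, 40 gained one and 27 changed sign. The count of called genes was 1 between genotypes in Zbtb16 THY1+ libraries, and it was 0 with a pseudocount of 0.01, a mean FPKM of at least 1 or the compared libraries only, 2 with the replicate block, and 0 to 1 without single libraries. For the Zbtb16 interaction it went from 0 to 1 with the GC and length correction, to 9 with the replicate block, and lay between 0 and 1 without single libraries. Without single libraries it lay between 1 and 2 for the WT fractions of Zbtb16, 3 and 7 for Sox3 averaged, 2 and 6 for the Sox3 libraries with high Kit, and 1 and 3 for the cKO fractions. In the cKO fractions it went from 1 to 3 with a pseudocount of 1 and with the GC and length correction, to 2 with median centring and with the compared libraries only, and to 4 with the replicate block. The block moved no other count of the 9 genes by over 1.5 times (it gave 6 of 9 in the Sox3 libraries with high Kit and 7 of 9 on average), whereas it took the called immediate early genes of the other 44 from 7 to 12 on average and from 13 to 22 with high Kit in Sox3. Over all genes of the Sox3 experiment the block took the calls from 2188 to 2457 on average and from 3608 to 4194 with high Kit. The causes were not tested.

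The values that changed sign were not called in any case. Between the WT fractions of Zbtb16, Fos and Fosl2 turned positive with median centring (0.027 and 0.066) and with the GC and length correction (0.038 and 0.203), and without single libraries ran from -0.36 to 0.32 and -0.19 to 0.15, with Ier2 from -0.36 to 0.25. With the Sox3 labels as given, median centring turned Junb in THY1+ to -0.054 and Ier2 between the WT fractions to -0.037. Without single libraries, Junb and Fosb in THY1+ ran from -0.25 to 0.39 and -0.037 to 0.703; Junb, Fosb, Fosl2, Ier2 and Jund between the WT fractions from -0.64 to 0.005, -0.37 to 0.014, -0.41 to 0.001, -0.20 to 0.35 and -0.007 to 0.289; Jun between cKO THY1+ and WT labelled KIT+ from -0.019 to 0.518; and Jun and Egr1 between the cKO fractions from -0.12 to 0.52 and -0.015 to 0.293. Median centring and the GC and length correction moved the median change of all genes in the interaction from 0.00 to -0.15 and -0.10. With 3 libraries a group, small changes were beyond reach, and Atf3 in KIT+ libraries rested on few reads.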
